A study of Mus musculus with 2 samples.

Results

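The *Lpl Penk Plau* fibroblasts are a group of Pdgfra-positive stromal cells of the mouse intestinal lamina propria that carry RNA of *Lpl*, *Penk*, *Plau*, *Alkal2*, *Col6a6* and *Dpep1*. They were chosen by their own counts of unique molecular identifiers (UMIs, tags that mark single RNA molecules), so their high levels of these 6 genes follow from the choice. A barcode was a member when it had at least 3000 UMIs, at most 20% of them from mitochondrial genes, at least 1 UMI of *Pdgfra* and none of *Ptprc*, *Epcam* or *Pecam1*. It also had to show at least 3 of the 6 genes and fewer genes of each of 3 other sets of 6 genes, named here *Pi16*, *Adamdec1* and *Grem1 Ackr4* after their leading genes. The rule found 1560 members among 5948 Pdgfra-positive cells and 13168 barcodes that passed the limits on depth and mitochondrial UMIs. A barcode that met the same rule for another set was placed in the *Pi16* class (1124 cells), the *Adamdec1* class (1224 cells) or the *Grem1 Ackr4* class (998 cells).

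The cells came from 2 libraries, 1 per genotype. ApcMin mice were ApcMin/+ with both copies of *Lef1* intact (*Lef1* +/+), and VApcMinL mice were ApcMin/+ with floxed *Lef1* and Villin-Cre (*Lef1* fl/fl), so both groups carried the Min allele of the tumor suppressor *Apc*. All mice were C57BL/6 and 11 weeks old by the labels, although the results text of the study gives a slightly younger age. Cells were freed with EDTA and Liberase, sorted as DAPI-, Ter119-, EpCAM- and CD45-, and counted with droplet-based 3' RNA sequencing. Villin-Cre acts in the intestinal epithelium, so *Lef1* was not targeted in the fibroblasts themselves. How many mice stood behind each library was not given for these samples. With 1 library per genotype, no difference between libraries could be tested, and every interval below covers counting error only.

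Fibroblasts that express *Pdgfra*, the receptor alpha for platelet-derived growth factor, lie around blood vessels, in the submucosa and close to the crypts, and they supply matrix, growth factors and cytokines. Lipoprotein lipase, the product of *Lpl*, is made by parenchymal and stromal cells and releases fatty acids from lipoproteins at capillaries. *Penk* encodes the precursor of the enkephalins, *Plau* the urokinase plasminogen activator, *Alkal2* a ligand of the receptor tyrosine kinases ALK and LTK, *Col6a6* a chain of collagen VI, and *Dpep1* a membrane dipeptidase that also acts on leukotrienes.

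Members carried RNA of *Dcn*, a common fibroblast gene, and of *Pdgfra*, which the rule required. These levels describe the members and do not test the label of fibroblasts. *Dcn*, which encodes the matrix proteoglycan decorin, stood at 21255 CPM (UMIs per 1000000 UMIs of the class) in ApcMin members and 20139 CPM in VApcMinL members. *Pdgfra* was at 712 and 682 CPM. Members had a median of 11869 UMIs per cell in ApcMin and 9658.5 UMIs in VApcMinL, with 3588 and 3111 detected genes and 3.17% and 3.15% mitochondrial UMIs in the median cell. The summed profiles rest on 10381664 and 7074995 UMIs. The libraries shared 1 barcode among members and 18 among all passing barcodes. *Lef1* had 0 UMIs in the 856 ApcMin members, which allows up to 0.289 CPM (3 UMIs), and 2 UMIs in the 704 VApcMinL members, so these cells do not check the deletion.

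Genome positions follow GENCODE vM21 on GRCm38, the build of the count files. *Lpl* lies on chr8:68880491-68907448 (plus strand), *Penk* on chr4:4133531-4138819 (minus), *Plau* on chr14:20836660-20843385 (plus), *Alkal2* on chr12:30884322-30893854 (plus), *Col6a6* on chr9:105687809-105828160 (minus) and *Dpep1* on chr8:123186242-123201812 (plus). A 3' UMI marks the whole gene and not an exon, and *Dpep1* overlaps *Gm20388* on its own strand, so their reads may have been split between them. Promoter sequence from RefSeq on GRCm38.p6 was at hand for 9 of the 18 genes that either chose or led the group, among them *Col6a6*, *Alkal2* and *Cnmd*. The 250 bases before the RefSeq start of those 3 are shown, with GGGCGG on either strand in capitals. RefSeq and GENCODE starts differ, so the windows of *Col6a6* and *Alkal2* run past the starts given above into the gene. Over the highest other class, in the library where it was smaller, the log2 step was 4.32 for *Col6a6* and 2.34 for *Alkal2*, both genes of the rule. For *Cnmd*, which had 0 UMIs in the other classes of that library, it was 4.48 as a lower bound with 3 UMIs in each class.
*Col6a6*, chr9:105828086-105828335, minus strand: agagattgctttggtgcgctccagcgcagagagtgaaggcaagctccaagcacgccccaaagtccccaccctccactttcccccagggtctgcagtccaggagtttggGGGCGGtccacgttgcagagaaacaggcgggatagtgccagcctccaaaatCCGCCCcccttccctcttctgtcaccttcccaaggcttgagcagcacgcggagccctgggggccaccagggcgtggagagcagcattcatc
*Alkal2*, chr12:30884074-30884323, plus strand: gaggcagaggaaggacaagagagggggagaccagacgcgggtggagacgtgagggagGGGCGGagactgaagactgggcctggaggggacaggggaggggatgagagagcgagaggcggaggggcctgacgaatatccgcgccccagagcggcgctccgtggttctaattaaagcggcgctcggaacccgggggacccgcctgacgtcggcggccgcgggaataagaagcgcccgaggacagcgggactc
*Cnmd*, chr14:79662184-79662433, minus strand: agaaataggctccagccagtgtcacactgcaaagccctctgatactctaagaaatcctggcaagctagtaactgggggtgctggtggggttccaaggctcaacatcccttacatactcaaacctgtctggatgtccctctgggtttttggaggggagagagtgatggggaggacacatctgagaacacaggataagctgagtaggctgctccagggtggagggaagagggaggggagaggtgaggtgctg
The windows of *Col6a6* and *Alkal2* were rich in G and C (62.4% and 68.0%, against a median of 52.4% over all 32851 windows) and held 10 and 25 CpG dinucleotides, while the *Cnmd* window, at 54.0%, held 0. The GGGCGG motif was found in 4 of the 9 windows, those of *Col6a6*, *Alkal2*, *Nmb* and *Lfng*, and in 32.7% of all windows. The TGACTCA motif was in none of the 9 windows and in 4.46% of all. The TGACGTCA motif was likewise in none of the 9 and in 1.55% of all. The TATAAA motif was in 1 of the 9 windows, that of *Vtn*, against 12.4% of all. The CCAAT motif was in the window of *Lfng* alone among the 9, against 33.8% of all, and so was the CACGTG motif, against 6.02% of all. The motifs were searched on both strands, and none of the 6 contains another. A match is a description of the letters only.

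The 6 choosing genes separated into 3 that almost every member showed and 3 that only some did. *Lpl* was detected in 99.6% of ApcMin and 99.3% of VApcMinL members, *Penk* in 98.8% and 98.4%, and *Dpep1* in 99.3% and 98.3%. *Plau* was found in 85.0% and 79.3%, *Alkal2* in 69.4% and 53.4%, and *Col6a6* in 64.6% and 59.1%. With every cell thinned to 3000 UMIs, *Alkal2* remained in 33.8% and 27.0% of members and *Col6a6* in 33.3% and 34.2%, so the unthinned shares also reflect the depth of the cells. In B-lineage cells (at least 2 UMIs of *Cd79a* and none of *Pdgfra*), which should lack these genes, *Lpl* was seen in 3.30% and 2.62% of cells and *Col6a6* in 0.200% and 0%, at a lower median depth of 5578 and 5013 UMIs. The part of the rule on the gene sets was met by 0 of the 1000 and 0 of the 724 B-lineage cells. The full rule could not be met, because these cells were picked without a UMI of *Pdgfra*.

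**Figure D1:**
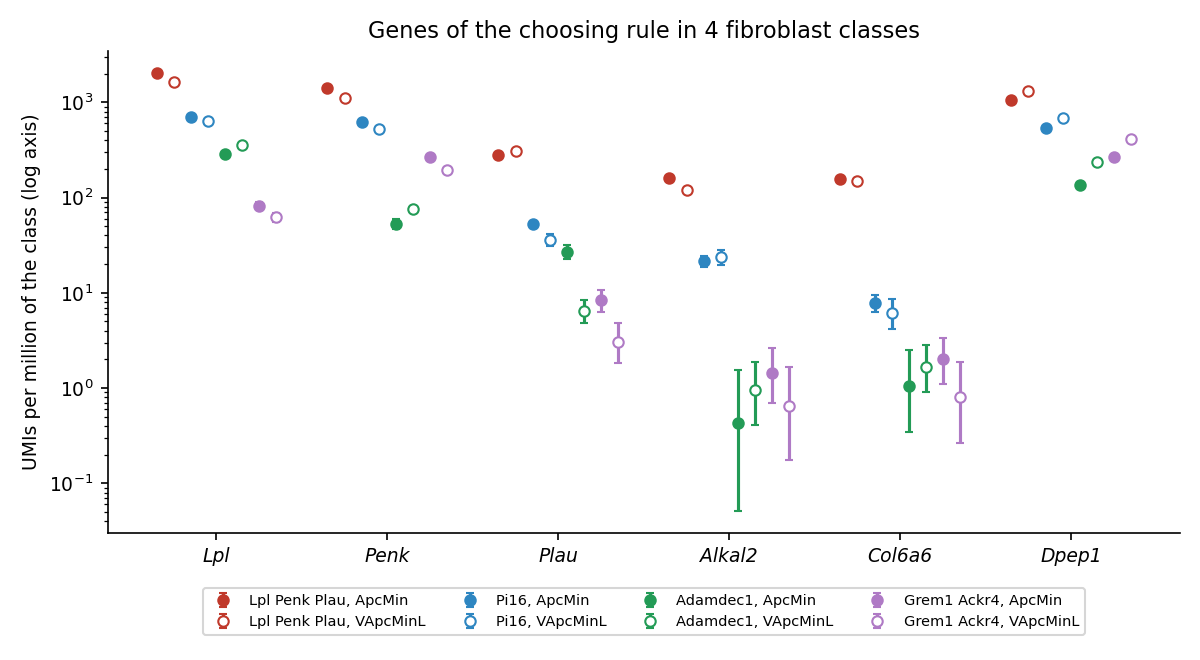
CPM (log axis) of the 6 genes used to choose the cells, in the 4 fibroblast classes of each library (filled: ApcMin, open: VApcMinL, bars: exact 95% Poisson intervals). *Col6a6* and *Alkal2* drop from 121 to 162 CPM in members to 2.01 CPM or less in the *Adamdec1* and *Grem1 Ackr4* classes, whereas *Lpl*, *Penk* and *Dpep1* stay at 519 CPM or more in the *Pi16* class.

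*Lpl* and *Penk* were shared with the *Pi16* class at a lower level, and *Plau*, *Alkal2* and *Col6a6* were the sharper marks. *Lpl* was at 2019 CPM (95% interval 1991 to 2046) in ApcMin members and 1632 CPM (1602 to 1662) in VApcMinL members, against 704 and 629 CPM in the *Pi16* class. *Penk* was at 1414 and 1111 CPM in members and at 627 and 519 CPM in the *Pi16* class. *Dpep1*, at 1052 and 1318 CPM, stood 1.98 and 1.94 times above the *Pi16* class and so was the only choosing gene that did not reach 2-fold against each class. *Plau* was at 280 and 307 CPM in members and at 52.3 and 35.6 CPM in the *Pi16* class, the highest of the other classes. *Alkal2* was at 162 and 121 CPM and at 21.4 and 23.8 CPM in the *Pi16* class. *Col6a6* was at 156 and 150 CPM, 20.0 and 24.6 times above the *Pi16* class. These values describe the choice and support nothing further. Each gene was also left out in turn, with members picked by at least 3 of the other 5. The gene left out stayed above the highest other class in both libraries. Examples were *Lpl* at 2186 CPM in ApcMin against 841 CPM, *Plau* at 292 against 74.8 CPM and *Col6a6* at 159 against 16.9 CPM. These genes were put together with earlier results of these data known, so this too is a description of the choice.

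Most members had a second set detected beside their own. All 6 choosing genes were found in 343 ApcMin and 197 VApcMinL members, 5 genes in 348 and 284, 4 genes in 131 and 163, and 3 genes in 34 and 60. The *Pi16* set alone was the runner-up in 69.3% of ApcMin members and in 48.2% of VApcMinL members, and 14 and 35 members showed no gene of any other set. The margin over the next set was a single gene in 248 ApcMin and 162 VApcMinL members. Just outside the rule, 282 ApcMin and 187 VApcMinL cells had at least 3 of the 6 genes but were tied with another set. Their *Penk* level was 1037 and 725 CPM and their *Plau* level 123 and 80.9 CPM. A further 21 and 18 cells had 2 of the 6 genes and fewer of each other set, and they stood apart in *Pdgfra*, at 2645 and 2148 CPM. Just inside, the cells with 3 genes had *Pdgfra* at 913 and 819 CPM and *Penk* at 1010 and 605 CPM.

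With the choosing genes counted in, 95 of 8111 genes with at least 200 UMIs in members (1.17%) were at least 2-fold above each of the other 3 classes in both libraries, and 21 (0.259%) were at least 2-fold below each. The 15 leading genes included *Plau*, *Alkal2* and *Col6a6* of the rule and 12 that the rule did not use. *Cnmd*, which encodes chondromodulin, a cartilage matrix glycoprotein, had 148 UMIs in ApcMin and 184 in VApcMinL members (14.3 and 26.0 CPM). It had 0 UMIs in the other 3 classes of ApcMin and at most 0.357 CPM in those of VApcMinL. *Cnmd* came from few cells, 39 of 856 and 50 of 704 members, with 62.8% and 54.9% of its UMIs in 10 cells.

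**Figure D2:**
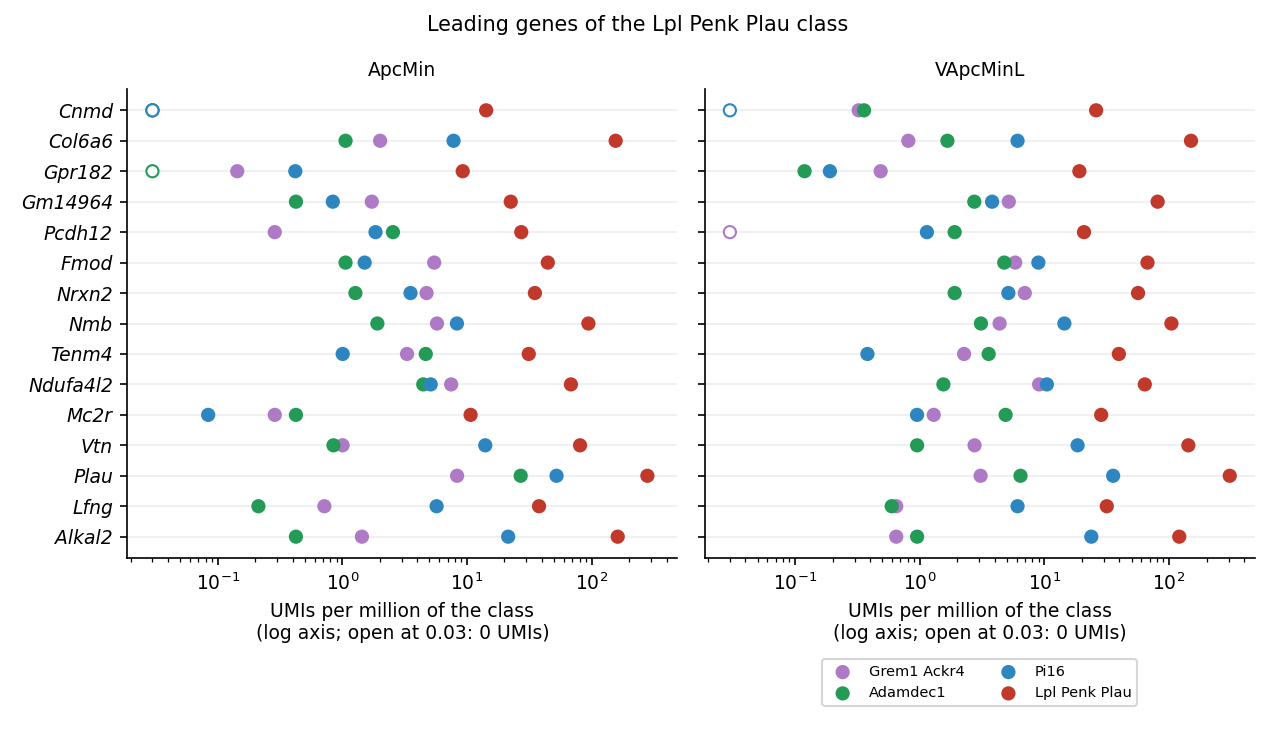
CPM (log axis) of the 15 leading genes in the 4 fibroblast classes, 1 panel per library, with open points at 0.03 for classes with 0 UMIs. The *Lpl Penk Plau* class is the rightmost point of every row in both panels, and *Vtn* and *Nmb* stand at 80.7 to 143 CPM in it against 18.5 CPM or less elsewhere.

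The other 11 leading genes outside the rule are taken in turn. *Nmb*, which encodes the peptide neuromedin B, was at 94.2 and 104 CPM in members and at most 14.5 CPM in another class. *Vtn*, the gene of the adhesive glycoprotein vitronectin, was at 80.7 and 143 CPM against at most 18.5 CPM. *Fmod*, which encodes the collagen-binding proteoglycan fibromodulin, was at 44.5 and 67.1 CPM against at most 8.95 CPM. Among receptors and membrane proteins, *Gpr182*, an atypical chemokine receptor, was at 9.25 and 19.1 CPM, *Mc2r*, the receptor for adrenocorticotropic hormone, at 10.7 and 28.6 CPM, and *Tenm4*, a teneurin, at 31.3 and 39.6 CPM. *Pcdh12*, a protocadherin known from endothelium, was at 27.3 and 20.8 CPM. *Ndufa4l2*, a hypoxia-linked mitochondrial protein gene, was at 68.2 and 63.9 CPM, and *Lfng*, whose product adds sugars to Notch receptors, at 37.9 and 31.7 CPM. *Nrxn2*, a neurexin gene, was at 35.1 and 56.4 CPM, and *Gm14964* on the opposite strand of the same locus at 22.4 and 81.0 CPM. Whether the counting used strand was not given in the sources used here, so some reads of *Nrxn2* may have been counted for *Gm14964* or the reverse. The same caution applies to *Gpr182* with *Zbtb39*, *Ndufa4l2* with *Shmt2*, *Alkal2* with *Acp1* and *Col6a6* with Gm38314, and *Nmb* overlaps *Sec11a* on its own strand.

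The 10 genes lowest in members were ranked by their step below the lowest other class, in the library where that step was smaller. *Lepr*, the leptin receptor, had the largest such step. The class named beside *Lepr* and *Mfap4* need not be that lowest class. *Lepr* was at 7.90 and 17.95 CPM in members and at 471 and 440 CPM in the *Grem1 Ackr4* class. *Mfap4*, a microfibril protein gene, was at 43.5 and 90.6 CPM against 1185 and 810 CPM in the *Adamdec1* class. *Pmepa1*, a target and inhibitor of TGF-beta signalling, was at 88.2 and 93.7 CPM in members and at no less than 299 CPM in any other class. *Aspn*, a small leucine-rich proteoglycan gene, was at 113 and 126 CPM against at least 355 CPM. *Fhl1*, *Sulf2*, *Aldh1a3*, *Efna5*, *Enpp3* and *Thbs3* completed the 10 lowest. Of these, *Mfap4*, *Sulf2*, *Aspn* and *Thbs3* overlap a gene on the opposite strand.

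Among genes of lipid handling, members were marked by *Lpl* and *Apod*. Of 11 such genes with at least 200 UMIs, these 2 were at least 2-fold above each other class in both libraries, against 1.17% of all genes tested, and *Lpl* belongs to the rule. *Apod*, which encodes a lipocalin that binds lipids, was at 146 CPM in ApcMin and 419 CPM in VApcMinL members and at most 98.0 CPM elsewhere. In VApcMinL 52.8% of the *Apod* UMIs came from 10 cells. *Gpihbp1*, which carries the lipase across capillary endothelium, had 2 and 8 UMIs, and the fat cell genes *Adipoq* and *Plin1* had 3 UMIs each over both libraries. *Pparg*, the regulator of fat cell formation, was at 6.36 and 5.94 CPM.

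Of the plasminogen system, members had high *Plau* and *Serpine2* and little receptor. *Serpine2*, whose product inhibits urokinase and thrombin, was at 823 and 448 CPM in members against at most 176 CPM in another class. *Plat*, the tissue-type activator, was at 222 and 175 CPM, below the *Pi16* class at 387 and 288 CPM. *Plaur*, the urokinase receptor, was at 7.90 and 9.75 CPM, and *Plg*, the gene of plasminogen, had 0 UMIs. Of the opioid system, *Penk* stood alone: *Pdyn* and the 3 opioid receptor genes *Oprm1*, *Oprd1* and *Oprk1* had 0 UMIs, and so did the processing protease gene *Pcsk1*. *Pam*, whose product amidates peptides, was at 191 and 183 CPM. For *Alkal2*, neither receptor gene was seen, with *Alk* and *Ltk* at 0 UMIs in members of both libraries. A count of 0 allows up to 3 UMIs, or 0.289 CPM in ApcMin and 0.424 CPM in VApcMinL members.

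Of 14 basement membrane genes with at least 200 UMIs, 4 were at least 2-fold above each other class in both libraries, against 1.17% of all genes tested: *Col4a3*, *Col4a4*, *Nid2* and *Hspg2*. *Hspg2*, which encodes perlecan, was at 569 and 537 CPM against at most 252 CPM. *Col4a4*, a chain of the collagen IV network known from kidney glomeruli, was at 63.8 and 62.0 CPM against at most 16.6 CPM, and *Col4a3* was at 27.1 and 30.2 CPM. *Nid2*, a nidogen that links laminin to collagen IV, was at 164 and 125 CPM against at most 48.5 CPM. *Col4a1*, a main chain, was at 2217 and 2010 CPM and 853 and 852 CPM in the *Pi16* class, but reached 1133 CPM in the *Adamdec1* class of VApcMinL. *Col15a1* was at 700 and 483 CPM against at most 431 CPM. Of 6 fibrillar collagen genes tested, *Col5a3* alone was at least 2-fold above each class, at 419 and 338 CPM, against 1.17% of all genes. *Col3a1* was lowest in members, at 3990 and 2600 CPM against at least 4390 CPM.

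Of 16 chemokine and cytokine genes tested, *Tslp* alone was at least 2-fold above each class in both libraries, against 1.17% of all genes. *Tslp*, a cytokine that acts on dendritic cells and type 2 lymphoid cells, was at 68.4 and 77.2 CPM against at most 36.6 CPM. *Cxcl14*, a chemokine, was at 355 and 595 CPM against at most 314 CPM. *Ccl11*, the eotaxin that attracts eosinophils, was at 2006 and 2550 CPM, beside 1238 and 2504 CPM in the *Adamdec1* class. *Gdf10*, a BMP family ligand, was at 338 and 352 CPM and at 198 and 347 CPM in the *Pi16* class. The BMP antagonist *Grem1* was at 19.6 and 68.3 CPM against at least 76.1 CPM, with 70.0% and 72.9% of its UMIs in 10 cells, and it belongs to another set of the rule. *Fgf10*, an epithelial growth factor, was at 62.1 and 33.8 CPM, and *Ntf3*, a neurotrophin, at 42.0 and 32.2 CPM, beside 50.5 and 56.6 CPM in the *Adamdec1* class. *Rspo3*, which strengthens Wnt signalling, was at 141 and 108 CPM, between the *Pi16* and *Grem1 Ackr4* classes. Of the complement genes, *C4b* was lowest in members, at 225 and 351 CPM against at least 483 CPM. *Ptgir*, the receptor for prostacyclin, was at 43.8 and 38.3 CPM against at most 19.0 CPM.

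The spread of single genes among members was measured as variance over mean. At 3000 UMIs per cell, and over 1399 genes with a mean of at least 0.3 UMIs per member in both libraries, the variance was 1.15 and 1.18 times the mean for the median gene. Leaving aside hemoglobin and immunoglobulin genes, which came mostly from few cells, and the nuclear or ribosomal transcripts *Malat1* and *Gm42418*, examples with a high ratio in both libraries were *Egr1* at 12.1 and 14.2, *Cxcl1*, a chemokine gene, at 11.1 and 12.4, and *Gsn*, of the actin-severing protein gelsolin, at 9.98 and 11.2. *Apod* was at 5.71 and 25.9. *Mgp*, a calcification inhibitor gene, had 13.5 and 21.0, and *Mt1*, a metallothionein gene, 11.6 and 16.8. These genes were picked after their values were seen.

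**Figure D3:**
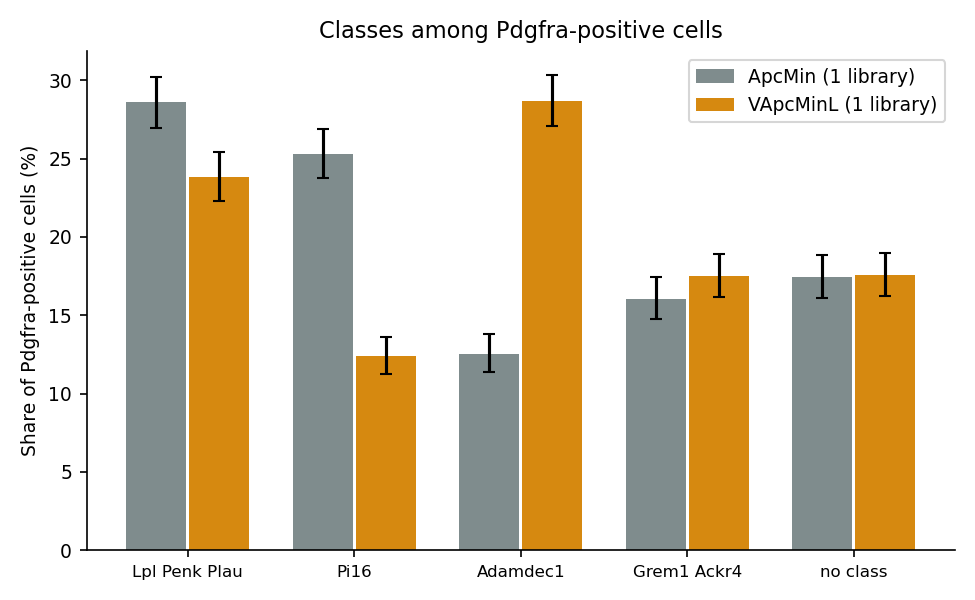
Share of Pdgfra-positive cells in each class (bars: 1 library each, lines: exact 95% Clopper-Pearson intervals). *Lpl Penk Plau* cells make up 28.6% in ApcMin and 23.8% in VApcMinL, beside 25.3% and 12.4% for the *Pi16* class and 12.6% and 28.7% for the *Adamdec1* class.

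The first comparison between genotypes asked what part of the Pdgfra-positive cells the group formed. It made up 856 of 2994 cells in ApcMin (28.6%, exact Clopper-Pearson interval 27.0% to 30.2%) and 704 of 2954 cells in VApcMinL (23.8%, 22.3% to 25.4%). The ratio of VApcMinL to ApcMin was 0.834 (95% interval 0.753 to 0.922, counting error only). In the same pool the *Pi16* class was at a ratio of 0.489 and the *Adamdec1* class at 2.29, and shares of 1 pool are not independent. The direction depended on the rule. Where members could show at most 1 gene of each other set, 139 ApcMin and 233 VApcMinL cells remained and the ratio turned to 1.70 (1.37 to 2.11). Where at least 3 of the 6 genes sufficed whatever the other sets, 1983 and 1415 cells qualified and the ratio was 0.723. The libraries also differed in depth and in free epithelial RNA: 12 ApcMin and 102 VApcMinL barcodes that met the set rule had a UMI of *Epcam*. Dropping that criterion gave 866 and 792 members and a ratio of 0.840. In such data fewer cells and cells that were less well freed or sorted cannot be told apart.

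**Figure D4:**
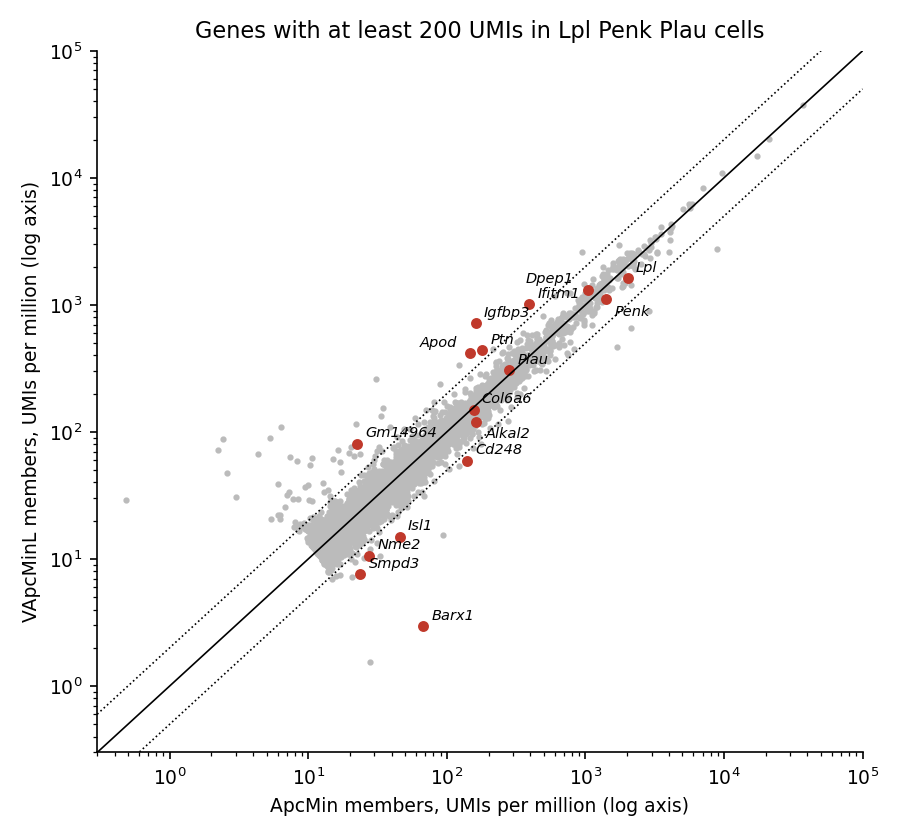
CPM in ApcMin (horizontal) and VApcMinL members (vertical), both on log axes, for genes with at least 200 UMIs in members and above 0 in both libraries (lines: equality and 2-fold). Most genes lie near the diagonal, *Igfbp3* lies above it at 161 and 719 CPM, and *Barx1* below it at 67.4 and 2.97 CPM.

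The second comparison asked which genes differed between the genotypes within members. The summed profiles were close: the median absolute log2 ratio over 8111 genes was 0.16 and the median log2 ratio -0.03. At least 2-fold higher in VApcMinL were 72 genes (0.888%), and at least 2-fold lower were 32 genes (0.395%). Of the 72, 50 had less than 2 times the level of the empty droplets and 24 had at least 50% of their UMIs in 10 cells in the library where they were higher, and 17 met all criteria for naming. Of the 32 lower genes, 16 did. No test was possible. Values of the other fibroblast classes, which come from the same 2 libraries, are shown for the named genes in the plot of library ratios. Of the higher genes, 24 of 42 tested in the *Pi16* class also passed 2-fold higher there, against 0.934% of all genes. In the *Adamdec1* class 35 of 58 did (1.40% of all genes) and in the *Grem1 Ackr4* class 16 of 39 (0.554%). Of the lower genes, 12 of 28, 11 of 20 and 10 of 20 passed 2-fold lower, against 0.499%, 0.639% and 0.423%. Many of these differences were thus not particular to members.

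*Igfbp3*, which encodes a binding protein that holds insulin-like growth factors in the tissue, had the largest ratio of the genes that met the criteria. It was at 161 CPM in ApcMin (1672 UMIs) and 719 CPM in VApcMinL members (5090 UMIs), a ratio of 4.47 (4.23 to 4.72). It was seen in 31.1% and 56.2% of members. The ratio of *Igfbp3* was also above 1 in the *Pi16* class (5.44, 4.22 to 7.05), the *Grem1 Ackr4* class (3.30, 2.31 to 4.81) and the *Adamdec1* class (2.01, 1.92 to 2.11), where its level was highest, at 489 and 985 CPM. With members allowed at most 1 gene of each other set, the log2 ratio of *Igfbp3* in members was 1.44 in place of 2.16.

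The other 9 of the 10 highest genes follow. Except for *Ptn*, their ratios were above 1 in each other class too, for *Mc2r* on few UMIs. *Gm14964* was at 22.4 and 81.0 CPM (ratio 3.61, 3.09 to 4.22) and *Mc2r* at 10.7 and 28.6 CPM (2.67, 2.11 to 3.40), both also leading genes of the group. *Stbd1*, which links glycogen to membranes, was at 6.26 and 22.3 CPM (3.57, 2.66 to 4.84), and *Gm10600* at 12.8 and 39.6 CPM (3.09, 2.50 to 3.83). *Galnt15*, a glycosyltransferase gene, was at 122 and 339 CPM (2.77, 2.59 to 2.97). *Zbtb16*, a transcription factor gene that glucocorticoids induce, was at 89.3 and 237 CPM (2.65, 2.45 to 2.88), and *Ifitm1*, an interferon-induced gene, at 390 and 1007 CPM (2.58, 2.48 to 2.68). *Ptn*, which encodes the growth factor pleiotrophin, was at 179 and 441 CPM (2.46, 2.33 to 2.61). Its ratio was 3.22 in the *Pi16* class but 0.988 (0.726 to 1.35) and 0.938 (0.858 to 1.03) in the *Adamdec1* and *Grem1 Ackr4* classes. *Ptn* lost the 2-fold call with each cell weighted equally (log2 0.96) and with at most 1 gene of each other set (0.88). *F2r*, the thrombin receptor gene, was at 31.4 and 70.4 CPM (2.24, 1.95 to 2.59), and it lost the call with 2 genes of the set sufficing (log2 0.81) and with at most 1 gene of each other set (0.50). Under that last rule, with 139 ApcMin and 233 VApcMinL cells, *Stbd1*, *Galnt15* and *Mc2r* had larger log2 ratios, of 2.67, 2.24 and 2.11. No interval was made for these values.

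*Barx1*, a homeobox gene known from stomach mesenchyme, was the lowest. It had 700 UMIs in ApcMin members (67.4 CPM, 62.5 to 72.6) and 21 in VApcMinL members (2.97 CPM, 1.84 to 4.54), a ratio of 0.0440 (0.0271 to 0.0678). With at most 1 gene of each other set its log2 ratio was -6.67 in place of -4.51, from 139 and 233 cells. It was seen in 224 of 856 and 10 of 704 members. The other classes differed the same way, at 41.7 and 5.14 CPM in the *Pi16* class, 21.2 and 0.238 CPM in the *Adamdec1* class and 7.76 and 1.30 CPM in the *Grem1 Ackr4* class. *Isl1*, a homeobox gene of foregut mesenchyme and of neurons, was at 45.6 and 14.98 CPM (0.329, 0.264 to 0.407), and its ratio was below 1 in all 4 classes. Of 8 genes tested in the list of regional factors, *Barx1* and *Isl1* were at least 2-fold lower, against 0.395% of all genes tested. In that list 0 genes were 2-fold higher, and the median log2 ratio was 0.13 against -0.03 for all genes. *Six2* and *Eya4*, from the same list, were below 200 UMIs and so not compared, at 11.8 and 0.848 CPM and at 6.94 and 1.41 CPM. Of the anterior Hox genes, *Hoxb4* was at 54.7 and 60.4 CPM and *Hoxa5* at 87.0 and 100.4 CPM, and the 6 posterior genes *Hoxa9*, *Hoxa10*, *Hoxd10*, *Hoxa11*, *Hoxa13* and *Hoxd13* had 0 UMIs in both libraries. *Nkx2-3*, a homeobox gene of gut mesenchyme, was at 86.3 and 113 CPM. The stretch of intestine digested for each library was not given.

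**Figure D5:**
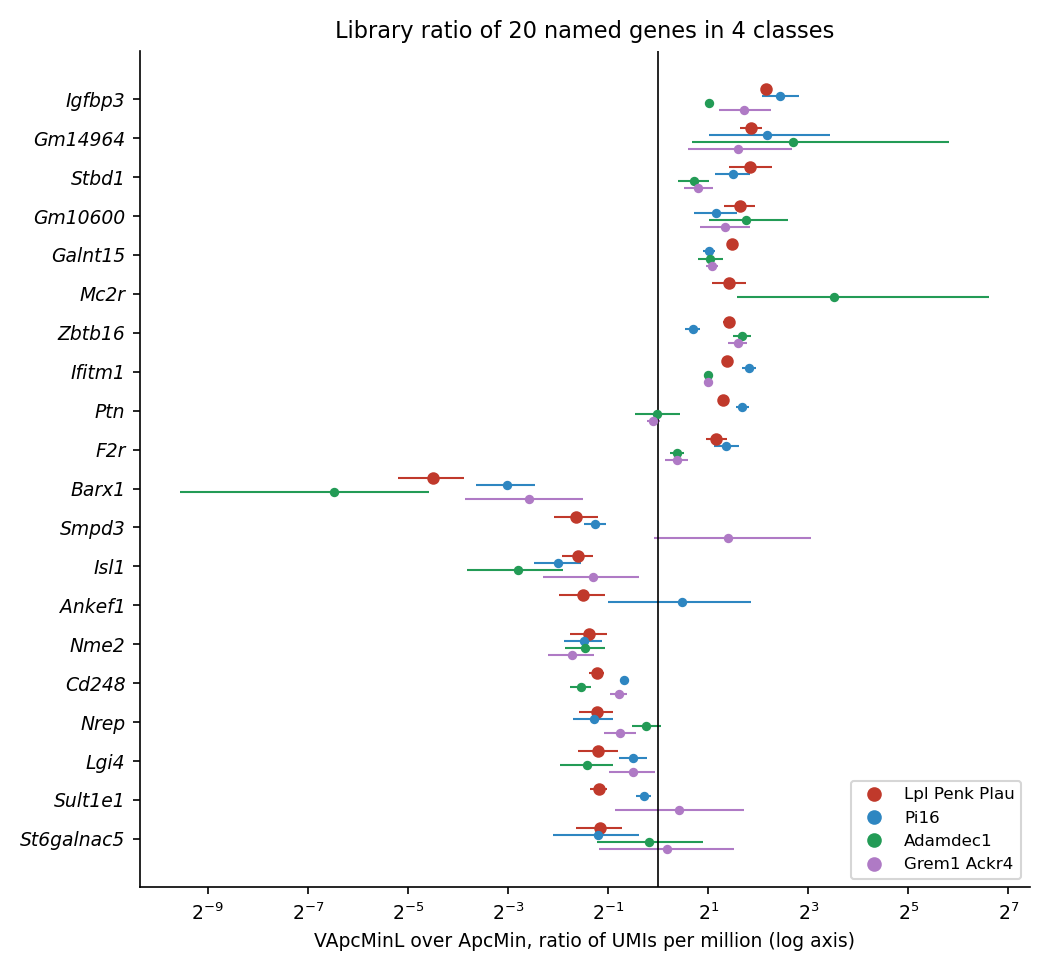
Ratio of VApcMinL to ApcMin (log axis) of the 10 highest and 10 lowest named genes in the 4 fibroblast classes (lines: exact 95% intervals, classes with under 20 UMIs or a library at 0 left out). *Igfbp3* and *Ifitm1* lie above 1 and *Barx1* and *Isl1* below 1 in all 4 classes, and *Ptn* lies above 1 in the *Lpl Penk Plau* and *Pi16* classes.

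The other 8 of the 10 lowest genes are given with *Pi16*, a gene of another set, which had 57.0% of its ApcMin UMIs in 10 cells and did not meet the criteria for naming by ratio. *Cd248*, which encodes endosialin and belongs to the *Pi16* set of the rule, was at 140 and 59.5 CPM (0.426, 0.382 to 0.476), and *Pi16* itself at 25.3 and 10.2 CPM (0.402, 0.305 to 0.523). With members allowed at most 1 gene of each other set, both turned, with log2 ratios of 0.10 for *Cd248* and 0.74 for *Pi16*. *Smpd3*, a sphingomyelinase gene, was at 23.7 and 7.63 CPM (0.322) and *Sult1e1*, an estrogen sulfotransferase gene, at 122 and 53.7 CPM (0.440). *Ankef1* was at 20.5 and 7.21 CPM (0.351), *Nrep* at 31.1 and 13.3 CPM (0.427), *Lgi4* at 21.7 and 9.47 CPM (0.437) and *St6galnac5* at 16.9 and 7.49 CPM (0.444). *Nme2*, a nucleoside diphosphate kinase gene, was at 27.6 and 10.6 CPM (0.383), and it overlaps *Gm20390* on its own strand, so the reads of both may have been split. Several of these calls were lost under an alternative: *Ankef1* was at a log2 ratio of -0.58 and *Lgi4* at -0.88 with at most 1 gene of each other set, *Sult1e1* at -0.78, *Cd248* at -0.97 and *Pi16* at -0.54 with cells thinned to 3000 UMIs. *Smpd3* stood at -0.996 when thinned and *St6galnac5* at -0.98 with 3 genes of the set whatever the other sets, both just short of 2-fold. *Smpd3* likewise overlaps *Gm26786*, and *Lgi4*, *St6galnac5* and *Galnt15* overlap genes of the opposite strand.

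In most gene lists few or no genes differed 2-fold between the libraries, as among all genes tested (0.888% higher and 0.395% lower). In the lipid list 3 of 11 genes were at least 2-fold higher, against 0.888% of all genes tested: *Apoe* at 951 and 2598 CPM, *Apod* at 146 and 419 CPM, and *Fabp4* at 17.2 and 48.5 CPM, of which *Apoe* and *Fabp4* were under 2 times the empty droplets of the library. *Apoe* was higher by 2.49 to 3.91 times in the other classes too, and its log2 ratio in members was 0.98 with at most 1 gene of each other set. Under that rule *Fabp4* was at 4.78, from 139 and 233 cells and without an interval. Of the retinoic acid list, *Aldh1a3* was higher, at 32.6 and 75.8 CPM, and *Aldh1a2* lower, at 176 and 80.8 CPM (0.459, 0.417 to 0.505). *Aldh1a3* was also under 2 times the empty droplets, and its log2 ratio was 0.999 with doublets left out, 0.97 with 2 genes of the set sufficing and 0.95 when thinned, all short of 2-fold. *Aldh1a2* lost the call with at most 1 gene of each other set (log2 -0.65), with 3 genes whatever the other sets (-0.73) and with ties counted (-0.98). Both make retinoic acid from retinal, and 5 other genes of the 7 tested stayed within 2-fold. No gene of the lists of collagen VI, fibrillar collagens, basement membrane, plasminogen activation, opioid peptides, peptidases, complement or prostaglandins passed 2-fold, although the median log2 ratio was -0.41 for collagen VI and -0.39 for fibrillar collagens against -0.03 for all genes. *Col3a1* was at 3990 and 2600 CPM and *Serpine2* at 823 and 448 CPM (0.544, 0.522 to 0.566). Of 3 Wnt ligand and R-spondin genes tested, *Wnt5a* was at 132 and 97.5 CPM, *Rspo3* at 141 and 108 CPM and *Rspo1* at 19.5 and 17.1 CPM. Of 16 immediate early and heat shock genes 0 passed 2-fold, which is near the shares of all genes. *Hspa1a* was highest in ratio among them, at 732 and 1250 CPM. Of 8 glucocorticoid response genes, *Zbtb16* alone passed, against 0.888% of all genes tested, and *Tsc22d3* was at 147 and 265 CPM.

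A few genes differed through a few cells. *Wif1*, a secreted Wnt inhibitor known from stroma under the epithelium, had 0 UMIs in ApcMin members and 582 in VApcMinL members. Those UMIs lay in 21 of 704 members, with 86.1% in 10 cells. *Cxcl13*, a B cell chemokine, had 27 and 337 UMIs with 81.5% and 94.1% in 10 cells. Its log2 ratio was 4.19, but 2.18 with doublets left out, 1.81 when thinned and 1.42 with at most 1 gene of each other set. *Adamdec1*, of another set of the rule, had 349 and 944 UMIs with 84.0% and 87.3% in 10 cells, and its log2 ratio was 0.28 when thinned in place of 1.99. *Grem1* was likewise at 0.42 in place of 1.80. *Mmp3*, a matrix metalloproteinase gene, was at 49.4 and 106 CPM with 59.1% and 62.9% in 10 cells and a log2 ratio of 1.10 that was 0.16 with 3 genes whatever the other sets. *Hhip*, of the Hedgehog list, was at 5.39 and 20.8 CPM and at least 107 CPM in the *Adamdec1* class.

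Genes of other cell types were summed in members of each library. The 5 erythroid genes summed to 15528 CPM in ApcMin and 4778 CPM in VApcMinL members, with 70809 and 20657 CPM in the empty droplets. All 5 were at least 2-fold lower in VApcMinL, against 0.395% of all genes tested, and of these *Hba-a1* and *Hba-a2* are near-identical copies. The 7 genes of pancreatic acinar cells summed to 134 and 587 CPM, with 4904 and 1724 CPM in the empty droplets. Against 0.888% of all genes tested, all 7 were at least 2-fold higher in VApcMinL members. In these, 77.7% of the UMIs of *Prss2* and 75.3% of those of *Ctrb1* lay in 10 cells. Epithelial genes summed to 10.0 and 75.9 CPM, with 382 and 3050 CPM in the empty droplets, and *Epcam* was at 0 by the rule. Leukocyte genes summed to 660 and 746 CPM, of which *Jchain* made 629 and 709 CPM, with *Ptprc* and *Cd3e* at 0. Endothelial genes summed to 25.5 and 27.7 CPM, glial genes to 9.34 and 13.6 CPM and fat cell genes to 7.51 and 4.10 CPM. Mesothelial genes summed to 52.0 and 38.2 CPM, of which *Wt1* made 51.3 and 25.6 CPM while *Msln* had 0 and 4 UMIs. Smooth muscle genes summed to 127 and 93.4 CPM, pericyte genes to 101 and 129 CPM, and genes of Pdgfra-high stroma below the epithelium to 128 and 256 CPM. Genes of the *Scg2 Chodl Fibin* stroma summed to 57.0 and 47.3 CPM, those of interstitial cells of Cajal to 53.9 and 60.5 CPM, and those of the cell cycle to 47.8 and 10.5 CPM. With 3% of the empty-droplet profile subtracted, 66 genes were at least 2-fold higher and 38 lower in place of 72 and 32, and of 39 named genes with a value 0 lost a 2-fold call, while *Fabp4* gave no value. With hemoglobin, immunoglobulin and mitochondrial genes and *Gm42418* out of the total, there were 68 and 34. Any larger part of RNA from other cells was not tested.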

How the data were processed

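The authors deposited raw UMI counts per gene and barcode, without normalization or cell calling. The count file headers name Cell Ranger 3.1.0, whereas the submitters' processing notes name Cell Ranger 2.1.1 and Seurat 3.1.1, with mm10/GRCm38. Members were picked by the rule given in the report, without clustering or integration. Doublets were not removed in the main values. CPM were made here from the summed UMIs of each class in a library. Intervals are exact at 95% (Poisson, Clopper-Pearson, conditional binomial). A gene was compared at 200 UMIs over both libraries' members and called at 2-fold. Named genes met the list, rank or ratio rules: list genes with the highest CPM or past 2-fold, 15 leading and 10 lowest genes, and the 10 highest and lowest library ratios above 2 times the empty droplets (ranks 45000 to 90000) with under 50% of UMIs in 10 cells, without mitochondrial, *Xist* and Y-linked genes. Genes picked otherwise are named for context. Members and lists were chosen with earlier results of these data known. The libraries held 93203061 and 101609269 UMIs. Calculations were tested on simulated data. Python 3.11.15, scipy 1.17.1, scanpy 1.11.5 (Scrublet) and edgeR 4.0.16 (TMM) were used.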

Additional observations from a re-analysis of the deposited data

Results flagged for a closer look

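Cells outside the group carried its genes. The set rule was met by 8 ApcMin and 18 VApcMinL barcodes with 0 UMIs of *Pdgfra*, and by 12 and 102 barcodes with a UMI of *Epcam*. It was also met by 33 and 36 barcodes with a UMI of *Ptprc* and by 45 and 56 with a UMI of *Pecam1*. A further 20 and 29 barcodes of at least 500 but under 3000 UMIs met the set rule and all other criteria. For comparison, 0 of 1000 and 0 of 724 B-lineage cells met the set rule.

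4 genes were at least 2-fold apart between the libraries in opposite directions in members and in another class, and these differences were not tested. The log2 ratio of VApcMinL to ApcMin was 2.38 for *Prss2* in members and -1.06 in the *Pi16* class, and 2.14 for *Ctrb1* in members and -1.07 in the *Grem1 Ackr4* class. Both are pancreatic enzyme genes, and 77.7% and 75.3% of their UMIs in VApcMinL members lay in 10 cells. Both were lower in VApcMinL in the *Pi16* and *Grem1 Ackr4* classes but higher in the *Adamdec1* class. There *Prss2* was at 12.3 and 517 CPM and *Ctrb1* at 19.7 and 814 CPM. Of those VApcMinL UMIs, 99.1% and 98.5% lay in 10 cells. *Cx3cr1*, a chemokine receptor gene of myeloid cells, was at 2.03 in members and -2.90 in the *Pi16* class, with 97.4% and 100% of its UMIs in members in 10 cells. *Ctgf*, a matrix-associated growth factor gene, was at 1.07 in members (70.5 and 148 CPM) and -1.05 in the *Adamdec1* class (97.3 and 47.1 CPM), with 25.4% and 21.2% of its UMIs in members in 10 cells.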

How the results depend on the processing

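No paired analysis was possible because a single library stands for each genotype. The share ratio of 0.834 turned to 1.70 with at most 1 gene of each other set and was 0.723 with 3 genes of the set whatever the other sets, an alternative chosen after seeing the data. Under the other 10 alternatives it lay between 0.794 and 0.866. The 72 higher genes became 36 and the 32 lower ones 15 with at most 1 gene of each other set, where 2593 genes could be tested, 44 higher with cells picked at 3000 UMIs, 183 higher with the *Epcam* criterion left out (also chosen after seeing the data), 151 and 64 with 3 genes whatever the other sets, 201 and 104 at 50 UMIs per gene, and 1398 and 686 with no minimum. The last 2 counts include genes with few UMIs. Beyond the construction of each alternative, the cause was not tested. Of 678 values of 40 named genes under the alternatives, 4 changed sign: *Cd248* to 0.10 and *Pi16* to 0.74 in log2 with at most 1 gene of each other set, and *Col6a6* from -0.06 to 0.01 with 4 genes of the set and 0.08 with 3 genes whatever the other sets. Of these 40 named genes, 32 were past 2-fold in the main values, higher or lower, and 16 of them lost that call under at least 1 alternative. TMM and median-of-ratios factors were within 1.01 of the total, and gave 68 and 34 genes each. With 1 library per genotype, the spread between mice is unknown, and UMI depth limits genes under 200 UMIs.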

Other observations

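Among the cells that were left out, those tied between sets had a higher median depth than the members, 14337 UMIs in ApcMin and 12660 UMIs in VApcMinL against 11869 and 9658.5 UMIs. The 523 ApcMin and 519 VApcMinL Pdgfra-positive cells of no class made up 17.5% and 17.6% of the pool, a ratio of 1.01 (0.889 to 1.14).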
